A study of Caenorhabditis elegans with 6 samples.

Results

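The genes described here encode 3 kinds of small secreted defence and digestion proteins of *Caenorhabditis elegans*: lysozymes, saposin-like proteins and fungus-induced peptides. The members are every gene whose deposited symbol starts with lys-, ilys-, spp-, fip- or fipr-, a rule that gave 75 of the 47157 gene IDs: 10 *lys*, 6 *ilys*, 23 *spp*, 7 *fip* and 29 *fipr* genes. RNA from whole young adults was sequenced from wild-type N2 (3 libraries) and from *blmp-1(s71)* mutants (3 libraries), which the series' design text calls biological replicates. Animals of both groups came from bleached embryos, were synchronized as first-stage larvae and were grown on nematode growth medium plates, per the labels. The mutant is a single strain, its s71 lesion is not described in the labels, and no other allele, agent or treatment is named for either group. *blmp-1* is the worm's BLIMP1 gene and codes for a transcription factor with zinc fingers.

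Lysozymes cut the peptidoglycan of bacterial cell walls. *C. elegans* has a *lys* family, related to lysozymes of protists, and an *ilys* family of the invertebrate type. Saposin-like proteins fold around a conserved set of disulphide bonds, and several of them, the caenopores, open pores in bacterial membranes. The worm lives on bacteria, so in its intestine both kinds of protein serve digestion as well as defence, and several of their genes answer to the insulin pathway factor DAF-16, to p38 kinase signalling or to the TGF-beta ligand DBL-1. The *fip* and *fipr* genes (fungus-induced protein and fip-related) are named for short peptides whose transcripts were found to respond to fungal infection of the epidermis.

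The gene models mirror these kinds. In the WBcel235 annotation the *lys* genes encode proteins of 214 to 301 residues, the *ilys* genes 73 to 159, the *spp* genes 90 to 429 with a median of 106, the *fip* genes 50 to 95 and the *fipr* genes 41 to 191 with a median of 73. All 75 are annotated as protein coding.

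The libraries held between 5255125 and 15218178 reads on genes, and the replicate-1 library of each group was its shallowest. Levels are given as CPM, read counts scaled to the library total, divided by a TMM factor that balances the libraries, and as mean ± SD with n = 3. Levels of different genes are compared in TPM, which also corrects for gene length. Among markers of other tissues, summed intestinal levels were 4000 to 4936 scaled CPM in wild type and 4277 to 4736 in the mutant, with 1 of 10 genes higher and none lower. Summed epidermal levels were 2526 to 3157 and 1824 to 2129, with 1 of 10 lower, the adult collagen *col-19*, which held most of the sum. The other 9 epidermal markers summed to 138, 161 and 267 CPM in wild type and 741, 381 and 208 CPM in the mutant, and none of the 9 was called. Oocyte markers summed to 4772 to 7918 in wild type and 1339 to 4096 in the mutant, with 7 of 10 lower. Neuronal markers had 3 of 10 higher and sperm markers 3 of 8, while none of 8 pharyngeal, 6 body wall muscle and 2 coelomocyte genes tested passed. Of all tested genes, 8.64% were called higher and 13.4% lower. No marker was at 0 in all libraries, and the part of these marker shifts in the results below was not tested. In whole animals, fewer cells of a type and less RNA per cell cannot be told apart. *blmp-1* itself had 61, 130 and 165 reads in wild type and 157, 215 and 92 in the mutant (log2 fold change 0.16, SE 0.31).

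The comparison asks which of these genes differ in abundance in young adults when *blmp-1* is mutated. Most did not pass the test. The fungus-induced peptide genes *fip-6* and *fip-5*, the lysozyme gene *lys-7* and the rarely read lysozyme gene *ilys-3* rose in the mutant, and *fipr-13* fell. *ilys-3* entered the test only through the mutant libraries, where it was high, so that it had to differ and its place in the counts is no support for them. Of the 75 members, 43 reached 1 scaled CPM in at least 3 libraries and were tested, and limma called 4 higher and 1 lower at an adjusted p under 0.05, adjusted over all 13720 genes tested. That is 11.6% of the tested members, beside 22.1% of all tested genes (8.64% higher and 13.4% lower). On the recovered reads, edgeR and DESeq2 each called 6 members, 5 higher and 1 lower, beside 8.35% of all genes higher and 12.1% lower by edgeR, and 11.8% higher and 15.6% lower by DESeq2. In 8 of the 43, the mutant and wild-type libraries did not overlap, 18.6% beside 48.4% of all tested genes (22.2% higher and 26.2% lower in the mutant). The median log2 fold change of the tested members was 0.13, beside 0.07 for all tested genes. The count hung on single libraries. Leaving out mutant library 1 or mutant library 2 left *fip-6* as the sole member called, while the share of all genes called fell to 0.335% and 0.284%.

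**Figure D1:**
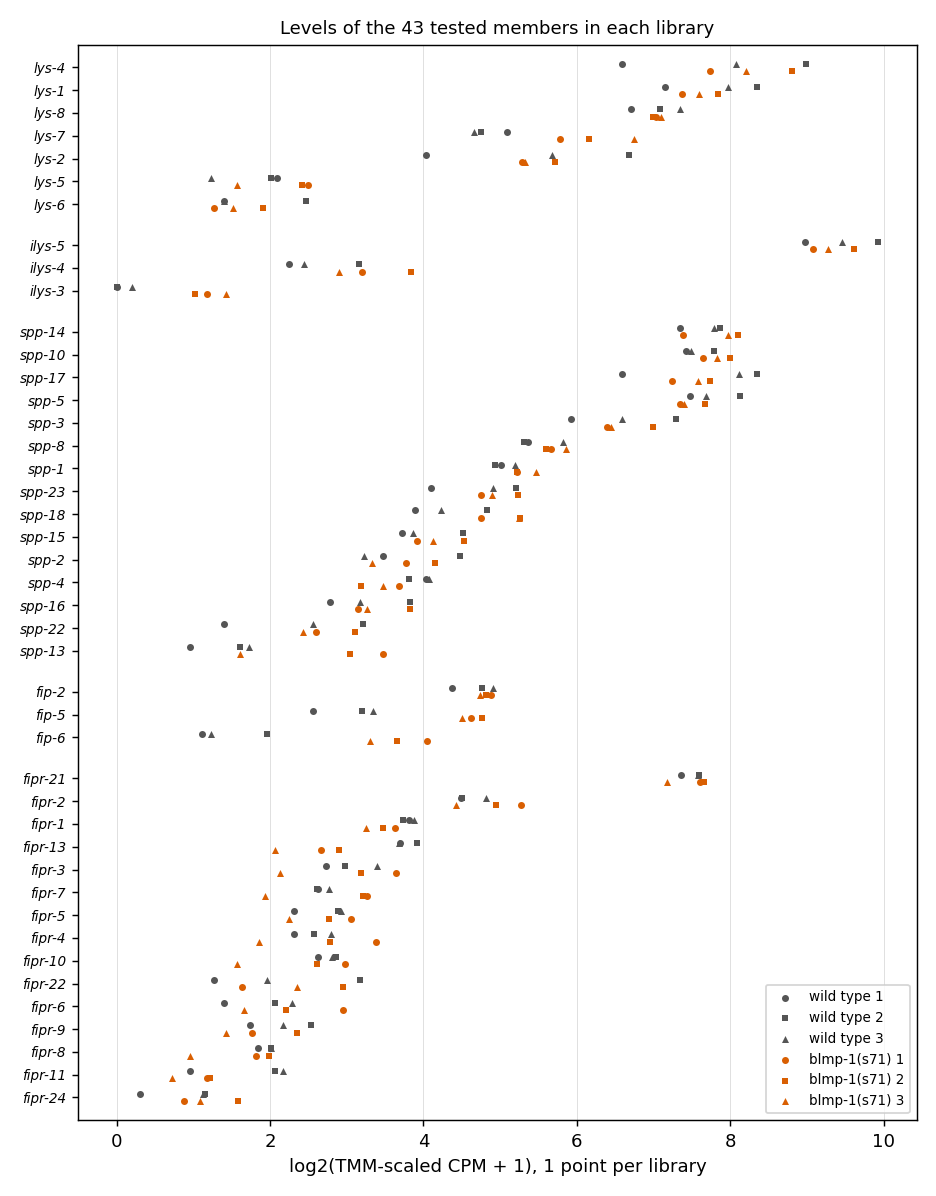
Levels of the 43 tested members, 1 row per gene ordered by family and mean level, on a log2(TMM-scaled CPM + 1) axis with 1 point per library (grey wild type, orange *blmp-1(s71)*, symbols for libraries 1 to 3). For 35 of the 43 genes the grey and orange points overlap, and *fip-5*, *fip-6*, *lys-7* and *ilys-3* are the clearest cases of orange to the right.

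For the 38 tested members that were not called, log2 fold changes lay between -0.69 and 1.28. In 24 of them the 95% interval of the limma estimate on the log2(CPM + 1) scale lay wholly within 2-fold in either direction. For the other 14 the interval reached past 2-fold. The scale understates changes of low genes. *lys-6*, 1 of the 24, had means of 2.61 CPM in wild type and 2.02 in the mutant (interval -0.91 to 0.53). For such low members a change past 2-fold in CPM is not excluded. None of the 10 members with a mean of at least 100 scaled CPM was called by limma, edgeR or DESeq2, with 0 at an unadjusted limma p under 0.05. The shares of all tested genes called were 22.1%, 20.4% and 27.4% in turn.

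**Figure D2:**
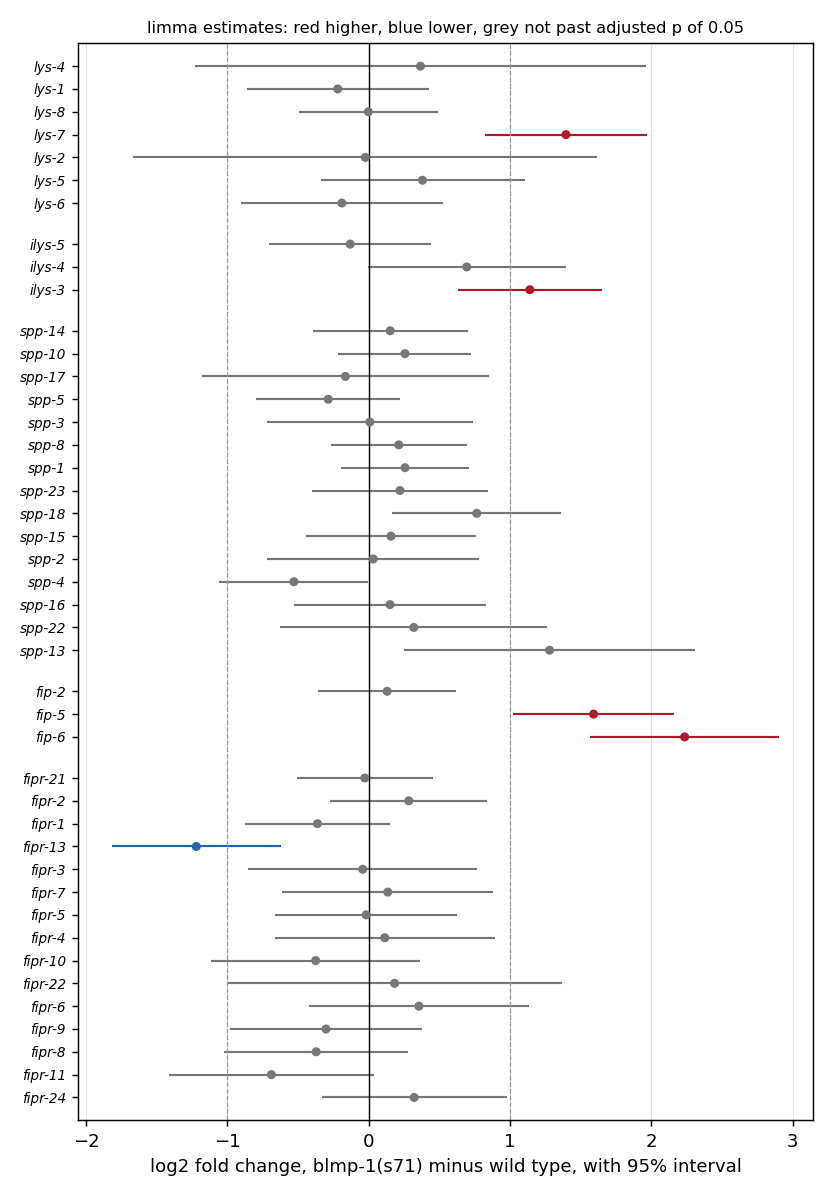
log2 fold change (*blmp-1(s71)* minus wild type) of each tested member with its 95% interval from limma, red where higher, blue where lower and grey where not called. Dashed lines mark 2-fold. The intervals of *lys-2* and *lys-4* are the widest among the *lys* genes, and those of *lys-8*, *spp-1*, *spp-8* and *fipr-21* lie within 2-fold.

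In TPM, a few genes carried most of the RNA. The mean over the 6 libraries was highest for *spp-14* (745 TPM), *spp-17* (716), *ilys-5* (689) and *spp-5* (636), followed by *fipr-21* (532), *lys-4* (509), *spp-3* (382), *lys-1* (251), *spp-10* (179) and *lys-8* (174). These 10 genes held 81.2% of the summed TPM of all 75 members. The order among the first 4 is not firm, since *spp-14* ran from 534 to 1047 TPM across libraries, *spp-17* from 323 to 1035, *ilys-5* from 490 to 895 and *spp-5* from 552 to 816. All members together took 0.161%, 0.379% and 0.262% of all reads in wild type, libraries 1 to 3 in turn, and 0.270%, 0.413% and 0.302% in the mutant. These shares are without TMM scaling. In scaled CPM the members summed to 1981, 3843 and 2960 in wild type and 2498, 3407 and 2796 in the mutant, a mutant to wild-type ratio of 0.99.

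At the other end, 6 members (*fipr-12*, *fipr-14*, *fipr-15*, *fipr-25*, *ilys-6* and *spp-20*) had no read in any library, and 15 more had 10 reads or fewer in all. A count of 0 allows 3 reads, or between 0.197 and 0.571 unscaled CPM in a library, for counting error only.

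Among the lysozymes of the *lys* family, *lys-7* stood apart. *lys-7* (WBGene00003096, chromosome V, 3481432 to 3482600 on the minus strand in WBcel235) is known from infection studies as a lysozyme gene with a part in resistance to pathogens and as a target of DAF-16. Its wild-type levels, in libraries 1 to 3, were 33.0, 26 and 24.2 CPM, and its mutant levels 54, 70.4 and 107 CPM. All mutant libraries lay above all wild-type libraries, and the third mutant library was the highest. The mean went from 27.7 ± 4.65 to 77.0 ± 26.9 CPM, or 1.40 in log2 fold change (limma adjusted p = 0.0232, SE 0.26). The call was lost without mutant library 1 or mutant library 2 (limma adjusted p = 0.0795 and 0.106), with log2 fold changes of 1.56 and 1.43. It was also lost, narrowly, with no filter on low values (limma adjusted p = 0.05003).

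The more abundant *lys* genes did not pass. *lys-8*, known to be regulated by DBL-1 signalling, had 103, 135 and 162 CPM in wild type and 130, 127 and 136 CPM in the mutant. The mutant libraries all fell inside the wild-type range, and the log2 fold change was -0.0027 with a 95% interval of -0.49 to 0.49. *lys-1*, an intestinal lysozyme, had 140, 326 and 249 CPM in wild type and 164, 228 and 193 CPM in the mutant, with an interval of -0.86 to 0.42. *lys-4*, the most abundant *lys* gene, had 95.3, 505 and 268 CPM in wild type and 212, 446 and 293 CPM in the mutant. Wild-type libraries alone spanned 5.30-fold for *lys-4* and 6.58-fold for *lys-2*, so their intervals (-1.23 to 1.96 and -1.67 to 1.62) leave changes past 2-fold in either direction possible. *lys-5* and *lys-6* stood at 1.34 to 4.64 CPM in every library, with log2 fold changes of 0.38 and -0.19. *lys-3*, *lys-9* and *lys-10* were too rarely read to be tested. *lys-10* had 1, 0 and 3 reads in wild type and 3, 27 and 11 in the mutant.

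Of the invertebrate-type lysozymes, *ilys-5* made up nearly all the RNA. It had 502, 976 and 699 CPM in wild type and 540, 784 and 616 CPM in the mutant, with overlapping groups and a log2 fold change of -0.13 (95% interval -0.70 to 0.44). *ilys-3* (WBGene00016670, chromosome IV, 2464456 to 2465443, plus strand), which encodes a lysozyme known to act on Gram-positive bacteria, had 0, 0 and 2 reads in wild type and 9, 17 and 18 in the mutant. The mutant level was 1.33 ± 0.335 CPM. Its log2 fold change on the log2(CPM + 1) scale was 1.14 (limma adjusted p = 0.0311, SE 0.24), which understates a change of so low a gene. Pooled over libraries and scaled to depth, the mutant rate was 19.7 times that of wild type. The exact 95% interval of 5.15 to 168 covers counting error only. *ilys-3* was picked for this ratio by its few wild-type and more mutant reads, so the ratio had to exceed 1. *ilys-3* reached 1 CPM in the mutant libraries alone, so it entered the test only through the group where it was high. It was called in 2 of 6 fits with a library left out, losing the call without wild-type library 2 or 3 or mutant library 1 or 2 (limma adjusted p = 0.0690, 0.0554, 0.103 and 0.117), and DESeq2 gave it no adjusted p. *ilys-4* had 3.74, 7.91 and 4.46 CPM in wild type and 8.15, 13.3 and 6.46 in the mutant, which overlapped (log2 fold change 0.69, limma adjusted p = 0.115).

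None of the 15 tested saposin-like genes was called by limma, with 3 at an unadjusted p under 0.05, 1 called by edgeR and 2 by DESeq2. Limma called 22.1% of all tested genes, edgeR 20.4% and DESeq2 27.4%. *spp-14* had 162, 232 and 220 CPM in wild type and 166, 274 and 250 CPM in the mutant, a difference of 0.15 in log2 (95% interval -0.40 to 0.70). *spp-10*, a prosaposin-like gene with 429 residues in its protein, had 171, 219 and 179 CPM in wild type and 199, 255 and 226 CPM in the mutant (interval -0.22 to 0.73). *spp-17* had 95.5, 326 and 275 CPM in wild type and 150, 212 and 191 CPM in the mutant (interval -1.18 to 0.85). In all 3 genes the groups overlapped. *spp-5*, which encodes the pore-forming caenopore-5 of the intestine, had a log2 fold change of -0.29 (interval -0.79 to 0.22). *spp-1*, known as an antimicrobial gene that DAF-16 activates, was higher in every mutant library (36.4, 36.4 and 43.3 CPM) than in any wild-type library (31.4, 29.6 and 35.7 CPM), with a log2 fold change of 0.26 that did not pass (limma adjusted p = 0.343).

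The members with the next smallest p were also *spp* genes, and they are named after their values were seen. *spp-18* had 13.8, 27.5 and 17.8 CPM in wild type and 25.9, 37.2 and 36.8 CPM in the mutant, where 1 mutant library lay below 1 wild-type library. Its log2 fold change was 0.76 (limma adjusted p = 0.0582, SE 0.28), and it was called by DESeq2. *spp-13* had 0.936, 2.05 and 2.31 CPM in wild type and 10.1, 7.23 and 2.06 CPM in the mutant. Mutant libraries 1 and 2 were high and the third lay among the wild-type values, and limma gave an adjusted p of 0.0655 for a log2 fold change of 1.28 (SE 0.46), while edgeR and DESeq2 called it. *spp-4* was lower in every mutant library, 15.4, 13.1 and 15.8 CPM against 11.8, 8.07 and 10.1 CPM, with a log2 fold change of -0.53 (limma adjusted p = 0.111).

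As measured in log2(CPM + 1), where a rarely read gene such as *ilys-3* appears to change less than its reads do, the *fip* genes *fip-6* and *fip-5* had the largest fold changes of the tested members, while *fip-2* did not pass. *fip-6* (WBGene00009964, chromosome I, 8945533 to 8946244, minus strand), a gene for a peptide of 75 residues, had 1.17, 2.89 and 1.34 CPM in wild type and 15.6, 11.6 and 8.90 CPM in the mutant. Its reads numbered 5, 38 and 18 against 111, 192 and 95. Every mutant library was far above every wild-type library, the mean went from 1.80 ± 0.948 to 12 ± 3.38 CPM, and the log2 fold change was 2.24 (limma adjusted p = 0.00461, SE 0.31). *fip-6* stayed called with each library left out in turn, at limma adjusted p between 0.00234 and 0.0267.

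*fip-5* (WBGene00009620, chromosome X, 10302741 to 10303143, plus strand) encodes a peptide of 74 residues. It had 4.91, 8.22 and 9.15 CPM in wild type and 23.6, 26.1 and 21.7 CPM in the mutant. The groups were far apart and the mutant libraries close to each other, with a rise from 7.43 ± 2.23 to 23.8 ± 2.18 CPM and a log2 fold change of 1.59 (limma adjusted p = 0.0137, SE 0.26). The call was lost without mutant library 1 or mutant library 2 (limma adjusted p = 0.0533 and 0.0810). *fip-2*, the third tested *fip* gene, had 19.7, 26.2 and 28.9 CPM in wild type and 28.4, 27.2 and 25.6 CPM in the mutant, which overlapped (log2 fold change 0.13, interval -0.36 to 0.62). *fip-1*, *fip-3*, *fip-4* and *fip-7* were too rarely read to be tested, with 0 to 5 reads in each library. The summed level of the *fip* genes was 26.2, 37.4 and 39.5 CPM in wild type and 68.5, 65.3 and 56.7 CPM in the mutant, of which *fip-2* held most in wild type.

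Of the 15 tested *fipr* genes, 1 fell and none rose, beside 13.4% of all tested genes lower and 8.64% higher. *fipr-13* (WBGene00010183, chromosome V, 10064521 to 10064942, plus strand), a gene for a peptide of 78 residues, had 11.9, 14.1 and 11.8 CPM in wild type and 5.34, 6.44 and 3.19 CPM in the mutant. Every mutant library was lower than every wild-type library, and the mean went from 12.6 ± 1.27 to 4.99 ± 1.66 CPM, or -1.22 in log2 fold change (limma adjusted p = 0.0334, SE 0.28). The call was kept in 1 of 6 fits with a library left out, the one without mutant library 3, and the other 5 gave limma adjusted p between 0.0542 and 0.0979. With library size alone as the scaling, under which the median of all genes was 0.35, the log2 fold change of *fipr-13* was -0.93 and was not called (limma adjusted p = 0.0582).

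*fipr-21*, the most abundant of the *fip* and *fipr* genes, had 163, 192 and 189 CPM in wild type and 194, 201 and 144 CPM in the mutant. The wild-type values fell within the mutant range, and the log2 fold change was -0.03 (interval -0.51 to 0.45). *fipr-2* had 21.5, 21.6 and 27.1 CPM in wild type and 37.8, 29.9 and 20.5 CPM in the mutant, with overlap (log2 fold change 0.28). *fipr-1*, its neighbour, had 13.1, 12.3 and 13.8 CPM in wild type and 11.4, 10.1 and 8.53 CPM in the mutant. The *fipr-1* groups did not overlap, but its log2 fold change of -0.36 did not pass (limma adjusted p = 0.239). The other 11 tested *fipr* genes ranged from 0.234 to 11.5 CPM across libraries, and their log2 fold changes lay between -0.69 for *fipr-11* and 0.36 for *fipr-6*.

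**Figure D3:**
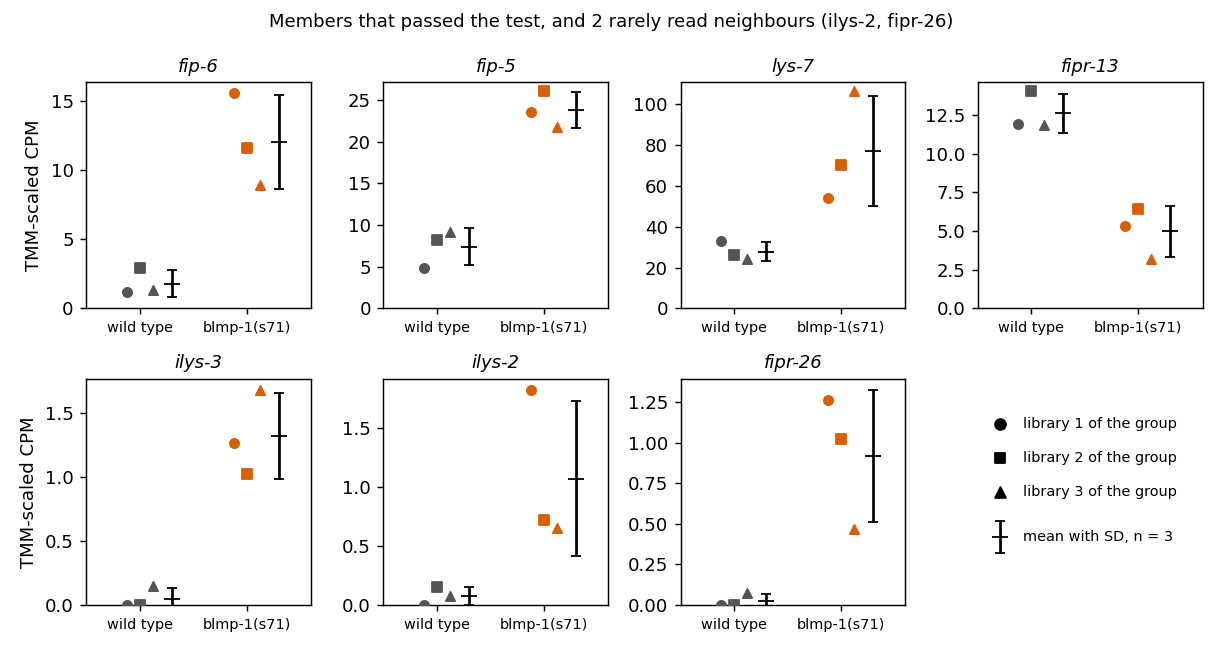
TMM-scaled CPM in each library of the 5 members that passed the test, and of *ilys-2* and *fipr-26*, which were too rarely read to be tested; bars are mean ± SD with n = 3. The axes start at 0 and differ between panels. In each of the 7 panels the orange mutant points lie wholly above the grey wild-type points, except for *fipr-13*, where they lie wholly below.

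The members cluster along the chromosomes. Grouping members separated by at most 10 kb placed 49 of the 75 in 18 groups, and 14 of these groups held genes with a single name stem. None of the 5 called members overlaps another annotated gene. *fip-6* lies 441 bp from *fipr-26* on the same strand. *fipr-26* had 0, 0 and 1 reads in wild type and 9, 17 and 5 in the mutant, too few to be tested, and its pooled rate ratio was 27.8 (exact 95% interval 4.64 to 1134, counting error only). *ilys-3* lies 2234 bp from *ilys-2*, which had 0, 2 and 1 reads in wild type and 13, 12 and 7 in the mutant, a pooled rate ratio of 9.57 (exact 95% interval 2.99 to 48.9). In both pairs, the neighbour of a called gene was higher in every mutant library. Of the called genes, *ilys-3* entered the test only through the mutant libraries. These rarely read neighbours were looked up after the values were seen. Their ratios were computed because wild-type reads were few and mutant reads more, so the ratios had to exceed 1 and are no support. *ilys-1*, next in the same row, had 1 read in all.

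Elsewhere close neighbours differed in level and in difference. *fip-5* lies 1385 bp from *fipr-21* on the same strand. In deposited TPM, *fip-5* went from 20.7 ± 5.18 to 81.0 ± 9.64, while *fipr-21* stood at 485 ± 26.4 and 580 ± 116, with overlap. These TPM are without TMM scaling. The scaled log2 fold changes were 1.59 for *fip-5* and -0.03 for *fipr-21*. On chromosome V, *lys-1*, *lys-2* and *lys-3* lie within 5641 bp, at 252 ± 93.8, 69.9 ± 54.9 and 0.644 ± 1.05 TPM in wild type. On chromosome IV, *lys-4* stood at 435 ± 311 TPM in wild type beside 4.39 ± 2.0 for *lys-5* and 4.35 ± 2.81 for *lys-6*, which follow within 6519 bp. On the X chromosome, 5 *spp* genes lie within 5386 bp. *spp-5* (644 ± 149 TPM in wild type) and *spp-3* (354 ± 164) stand at its ends, *spp-4* (37.9 ± 4.31) and *spp-2* (31.7 ± 16.9) between them, and *spp-6* had 8 reads over all libraries. None of these 5 was called. On chromosome V, 6 *fipr* genes within 18981 bp had like levels, from 7.74 ± 0.409 TPM for *fipr-8* to 20.3 ± 0.805 TPM for *fipr-7* in wild type. *fipr-22* and *fipr-23* both encode 191 residues and lie 1233 bp apart, yet had 321 and 18 reads in all. How the authors' counting treated reads that fit several copies is not given in the sources used here, so levels of such near neighbours are uncertain as to copy.

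**Figure D4:**
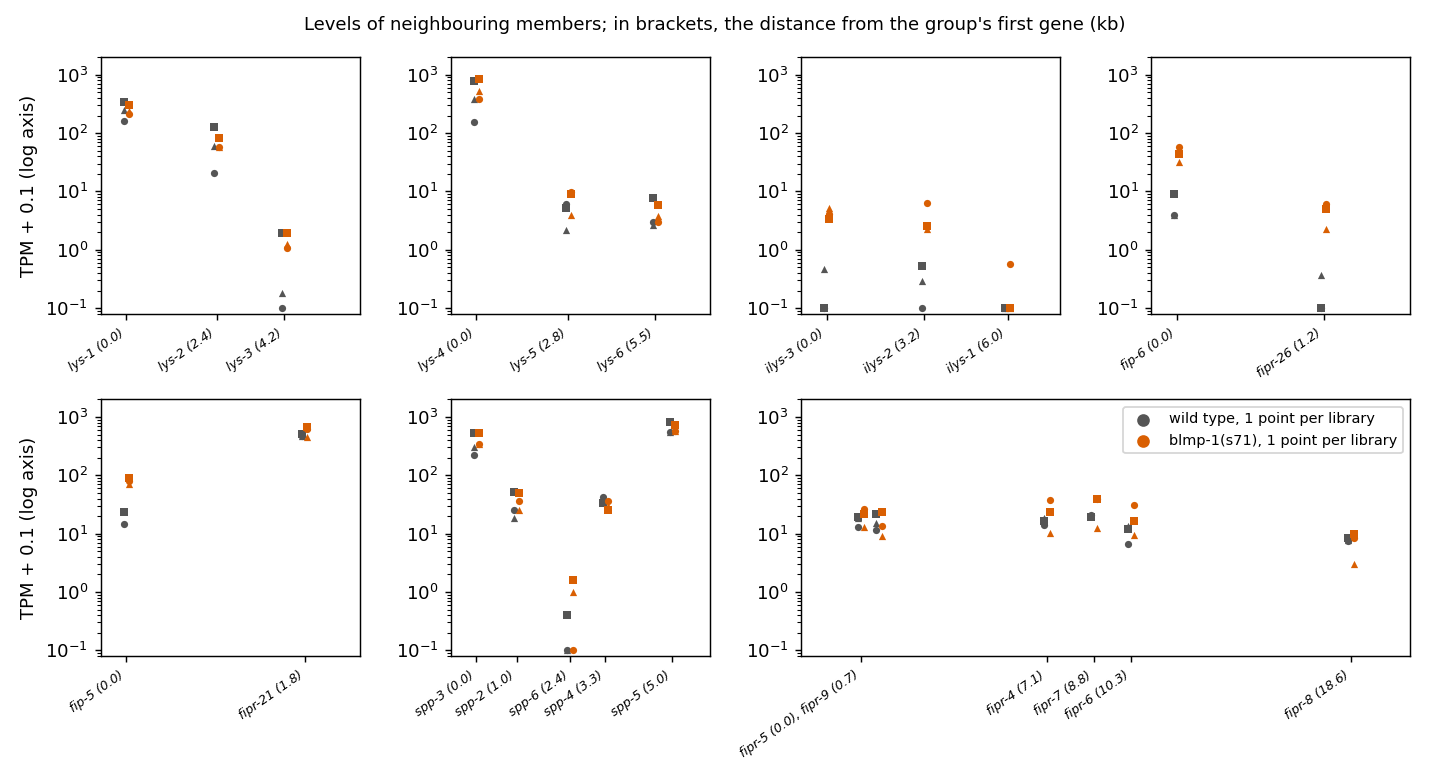
TPM + 0.1 on a log axis for members in groups of close neighbours, placed by distance in kb from the first gene of each group, with 1 point per library (grey wild type, orange *blmp-1(s71)*). The orange points stand above the grey for *fip-6* with *fipr-26* and for *ilys-3* with *ilys-2*, while for *fipr-21* they overlap beside the higher *fip-5*. *lys-4* (435 ± 311 TPM in wild type) stands far above its neighbours *lys-5* and *lys-6*.

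Libraries of a group differed in the levels of these families. Of the 25 tested *lys*, *ilys* and *spp* genes, 17 were lowest in wild-type library 1 among the wild-type libraries and 16 were lowest in mutant library 1 among the mutant libraries. In all tested genes these shares were 61.1% and 34.1%, so the wild-type count is near that of genes at large. Likewise 17 of the 25 were highest in wild-type library 2 and 17 in mutant library 2, where all tested genes had 38.8% and 37.6%. The *lys* sum was 392, 1102 and 756 CPM in wild type and 605, 933 and 773 CPM in the mutant. The *spp* sum was 813, 1424 and 1166 CPM in wild type and 962, 1306 and 1139 CPM in the mutant. The *ilys* sum was 506, 984 and 704 CPM in wild type and 552, 799 and 624 CPM in the mutant. Both replicate-1 libraries were also the shallowest. They had the highest summed markers of body wall muscle, 15530 and 13086 CPM against 4249 to 6720 in the other 4 libraries. The same held for the pharynx, 1180 and 1177 CPM against 314 to 508. *unc-54* held most of these 2 muscle sums (9029 and 6946 CPM), and *myo-1* and *myo-2* most of the pharyngeal ones. Among wild-type libraries, *unc-27*, *tni-4* and the *phat* genes were not highest in library 1, while the other muscle and pharyngeal markers were. The part of depth and of these markers in the levels was not tested.

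Of the 15 tested *fipr* genes, 12 were lowest in wild-type library 1 among the wild-type libraries. Among the mutant libraries 2 were lowest in library 1 and 13 in library 3, where all tested genes had 37.2%. The *fipr* sum was 243, 296 and 295 CPM in wild type and 311, 304 and 203 CPM in the mutant. Mutant library 3 was also the mutant library with the highest summed oocyte markers, 4096 CPM against 2073 and 1339 CPM, and the link was not tested. For *fipr-4*, *fipr-7* and *fipr-10*, chosen after their values were seen, the highest mutant library exceeded the lowest 3.59-fold, 3.05-fold and 3.50-fold. Between wild-type libraries these spans were 1.5-fold, 1.14-fold and 1.21-fold. Only *fipr-11*, *fipr-22* and *fipr-24* of the tested *fipr* genes went the other way. They spanned 3.74-fold, 5.69-fold and 5.20-fold between wild-type libraries and 2.02-fold, 3.20-fold and 2.36-fold between mutant libraries.

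**Figure D5:**
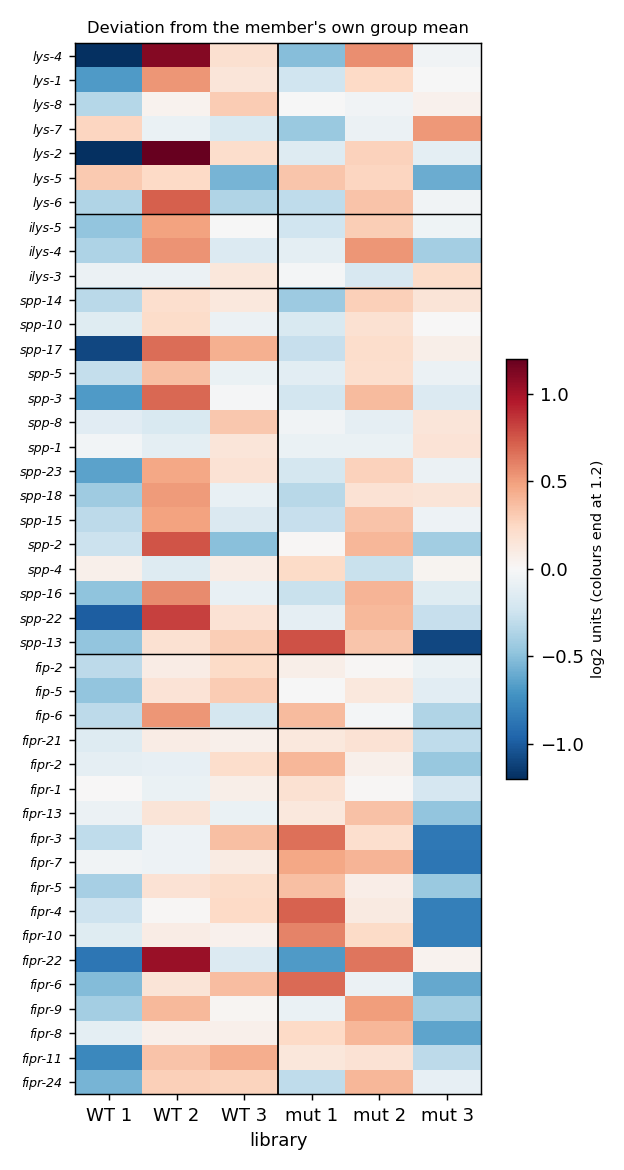
Deviation of each library from the mean of its own group on the log2(TMM-scaled CPM + 1) scale, 1 row per tested member, with horizontal lines between the *lys*, *ilys*, *spp*, *fip* and *fipr* families. Of the 25 *lys*, *ilys* and *spp* genes, 17 are highest in library 2 of each group, and 13 of the 15 *fipr* genes are lowest in mutant library 3.

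Known regulators and relatives were read from the same fit. Of all tested genes, this fit called 8.64% higher and 13.4% lower, with a median log2 fold change of 0.07. Of 22 genes of p38 signalling and other intestinal immune regulators, 1 rose and none fell, with a median log2 fold change of 0.37. It was *tpa-1*, a protein kinase C gene, which had 19.9, 21.8 and 27.2 CPM in wild type and 44.7, 45.3 and 32.9 CPM in the mutant, without overlap (log2 fold change 0.81, SE 0.23, limma adjusted p = 0.0358). A list of regulators of epidermal peptides shares *nipi-3*, *tir-1*, *nsy-1*, *sek-1*, *pmk-1* and *tpa-1* with the first. Of its 15 genes, 4 rose and 0 fell (median 0.41), and *tpa-1* is 1 of the 4. The others were *dcar-1*, an epidermal receptor that senses damage, at 28.5 ± 7.87 and 60.3 ± 11.7 CPM (log2 fold change 1.08), *snf-12*, an SLC6-type transporter gene, at 2.13 ± 0.315 and 5.44 ± 2.72 CPM (0.97), and *sta-2*, a STAT-like factor, at 8.13 ± 1.96 and 15.5 ± 3.30 CPM (0.86). With the deposited TPM, 1 gene of the epidermal list and 0 of the intestinal list were called.

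Of 14 genes of other antimicrobial families (*abf*, defensin-like peptides, and *thn*, thaumatin-like proteins), 6 were tested and 2 rose. Limma called 8.64% of all tested genes higher and 13.4% lower. *abf-2* had 0.234, 0.304 and 0.446 CPM in wild type and 1.83, 2.35 and 2.81 CPM in the mutant, all higher (log2 fold change 1.32, SE 0.24, limma adjusted p = 0.0206). *abf-2* reached 1 CPM only in the mutant libraries, so it entered the test through the group where it was high and its call is no support. *abf-5* went from 3.35 ± 0.156 to 6.67 ± 1.41 CPM (0.80). Of the 25 *cpr* and *asp* genes, cathepsin-type proteases taken by name stem, 17 were tested and limma called none. Of the 17, 1 had an unadjusted limma p under 0.05, 0 were called by edgeR and 1 by DESeq2. The median log2 fold change of the 17 was 0.01.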

How the data were processed

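Total RNA of whole young adults was extracted with TRIzol and made into TruSeq RNA libraries, per the labels' protocols. Tools listed in the submitters' processing notes are HISAT2 2.1.0, Trimmomatic 0.36, DESeq2 1.22.0 and featureCounts 1.6.3. Not given in the sources used here: the genome build, the use of strand in counting and the treatment of reads that fit several copies. The authors deposited, per library, CPM (reads scaled to the library's total on genes) and TPM for 47157 gene IDs with symbols. Whole reads were recovered from the deposited CPM, with 100% of values whole within 0.01 reads, and gave 5255125 to 15218178 reads per library. The annotated spans of 16 members overlap that of a protein-coding gene on the opposite strand: *lys-8*, *ilys-4*, *spp-1*, *spp-10*, *spp-15*, *spp-16*, *spp-19*, *spp-20*, *fip-1*, *fip-2*, *fip-4*, *fipr-1*, *fipr-2*, *fipr-3*, *fipr-10* and *fipr-11*. Where exons overlap too, reads of both genes cannot be told apart without knowledge of strand. Overlap of exons was not examined. Another 5 (*lys-4*, *spp-7*, *spp-13*, *spp-22* and *fipr-15*) overlap annotated genes of other types.

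CPM were scaled with TMM factors (edgeR 4.0.16). Genes at 1 scaled CPM or more in at least 3 libraries were tested in all 6 libraries with limma 3.58.1 (trend and robust options) on log2(scaled CPM + 1), in R 4.3.3. A fold change on this scale understates that of low genes. Adjusted p-values are Benjamini-Hochberg over the 13720 genes tested, two-sided, with a threshold of 0.05. Pooled read rates of 3 rarely read genes were compared by exact 95% intervals, which cover counting error only. These genes were picked for few reads in 1 group and more in the other. A ratio away from 1 was thus set in advance and is no support for a difference. The name stems that define the members, and the lists, were chosen with earlier results of these data known. By rule, members named with full values are those called, the 3 with the highest mean CPM in each family, and those without overlap and with a log2 fold change of at least 1 in size; from other lists, at most 4 called genes. Other members given with values, such as *spp-1*, *spp-4*, *spp-5*, *spp-13* and *spp-18*, were chosen after their values were seen. Recovered reads were also tested with edgeR's quasi-likelihood test and DESeq2 1.42.0, as alternatives beside other scalings, pseudocounts, no filter, TPM, the replicate block and left-out libraries. Gene positions come from the WBcel235 annotation, matched by gene ID.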

Additional observations from a re-analysis of the deposited data

How the results depend on the processing

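Of 271 values of the 17 named members under the alternatives, 233 kept their direction and side of the threshold, 18 lost the call, 1 gained it (*ilys-4* under the replicate block) and 19 changed sign. All 19 belong to 6 members that were called under no setting. With library size alone, log2 fold changes were 0.11 for *lys-1*, 0.33 for *lys-8*, 0.20 for *ilys-5*, 0.16 for *spp-17* and 0.30 for *fipr-21*. With upper-quartile scaling they were 0.13 for *lys-8*, 0.0029 for *ilys-5* and 0.11 for *fipr-21*. With a library left out they ran from -0.46 to 0.046 for *lys-1*, from -0.18 to 0.92 for *lys-4*, from -0.077 to 0.15 for *lys-8*, from -0.28 to 0.11 for *ilys-5*, from -0.61 to 0.17 for *spp-17* and from -0.15 to 0.12 for *fipr-21*. Over its alternatives, adjusted p ran from 1.59e-07 to 0.0267 for *fip-6*, from 3.90e-06 to 0.0810 for *fip-5*, from 0.000762 to 0.106 for *lys-7*, from 0.00307 to 0.117 for *ilys-3* and from 0.00251 to 0.0979 for *fipr-13* (limma, edgeR or DESeq2). With a library left out, 1 to 5 members were called higher, 0 to 1 lower, and 39 to 4951 of all genes were called. The number of members called lower was 0 with library size alone, without a filter and without both libraries numbered 1. All genes called numbered 1921 with TPM, 115 without a filter and 126 without both libraries numbered 1. Library size alone moved the median of all genes to 0.35 and upper-quartile scaling to 0.18, and 2282 and 2010 genes were then called higher and 140 and 1301 lower, against 1185 and 1844 with TMM; TPM gave 734 and 1187.

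The mutant to wild-type ratio of summed levels was 1.03 for *lys*, 0.900 for *ilys*, 1.0 for *spp*, 1.85 for *fip* and 0.982 for *fipr*. With library size alone these were 1.26, 1.12, 1.24, 2.30 and 1.23, and upper-quartile scaling gave 2.06 for *fip*. With a library left out they ran from 0.885 to 1.34, 0.804 to 1.09, 0.926 to 1.15, 1.71 to 2.0 and 0.869 to 1.11. In the p38 and intestinal list, 7 genes were called with library size alone, 4 with upper-quartile scaling, 0 with TPM and 3 with DESeq2. The epidermal list had 1 with TPM, and the proteases 1 with DESeq2. Of all tested genes, 17.6% were called with library size alone, 24% with upper-quartile scaling, 13.2% with TPM and 27.4% with DESeq2.

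Libraries with the same replicate number deviated from their group means with correlations of 0.36, 0.44 and -0.09 across genes, for numbers 1 to 3. Wild-type library 2 with mutant library 1 gave -0.41, and wild-type library 1 with mutant library 2 gave -0.45. Other pairs of unlike number ran from -0.07 to 0.19. The labels name no pairing, so the main fit had no replicate block. Whether libraries of the same number share a batch cannot be told from the labels. With the replicate block, 6 members were called higher and 1 lower, all genes called numbered 5844, the p38 list had 7 and the proteases 2. The cause of these shifts was not tested. With 3 libraries a group, changes near 2-fold in variable members such as *lys-2* and *lys-4* were not detectable.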

Other observations

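The WBcel235 annotation names 8 further saposin-like genes, *spp-24* to *spp-31*, which the deposited tables list under clone-based names, so they are not among the 75. Of these, 4 were tested and none was called by limma, with 2 at an unadjusted p under 0.05, 1 called by edgeR and 0 by DESeq2. Among all tested genes, limma called 22.1%, edgeR 20.4% and DESeq2 27.4%. R74.10 (*spp-28*) had a log2 fold change of 0.81 (limma adjusted p = 0.0510, SE 0.28), F23F1.7 (*spp-24*) 0.80 (limma adjusted p = 0.0705, SE 0.31), Y77E11A.14 (*spp-31*) 0.54 (SE 0.31) and K02A11.4 (*spp-25*) 0.30 (SE 0.59). K04A8.18 and K04A8.21 had 1 and 6 reads in all, and Y26G10.7 and Y71H9A.10 had none.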
